A study of Rattus norvegicus and Mus musculus with 9 samples.

Results

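The genes described here encode the proteasome: its subunits, activators and assembly chaperones. They were found by name, as every gene of the rat table with a single symbol that begins with Psma, Psmb, Psmc, Psmd, Psme, Psmf or Psmg and a digit, with the probe set of the highest mean kept for each symbol. This gave 47 of 14506 named rat genes and, by the same rule, 50 of 19938 named mouse genes, of which 46 were in both tables. All but 3 of the rat genes encode known subunits, activators or chaperones. The remaining 3 carry a matching name only: Psma3l, a copy of the core subunit gene Psma3, Psmc3ip, a factor of meiotic recombination, and Psme3ip1, which encodes a protein that binds the activator Psme3.

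RNA was hybridized to microarrays, 3 for each of the groups: embryonic stem (ES) cells of the rat, embryonic fibroblasts of the rat and ES cells of the mouse. The rat ES cells, of strain DA, were grown in a medium named 3I, a name used in ES cell culture for media with kinase inhibitors, and the rat embryonic fibroblasts, also of strain DA, in GMEM with 10% FBS. Mouse ES cells of the C57/BL6 strain were grown in GMEM with 10% FBS and LIF, with feeder cells removed before RNA was taken, a step the labels do not mention for the rat ES cells. Cell type and medium differ together between the rat groups, and species, strain and medium between the ES cells, so their parts in any difference cannot be told apart, and since the labels name no separate cultures within a group, p-values cover only the spread between arrays, which may be technical. All 8 measured ES cell markers were higher in rat ES cells and all 10 fibroblast markers higher in the fibroblasts (limma adjusted p under 0.05 in each), so the labels matched their defining genes. The fibroblast markers were not equal among the rat ES arrays: their summed log2 signal was 77.3, 79.7 and 81.8 on arrays 1, 2 and 3, against 126.5 to 127.0 on the fibroblast arrays. In RNA from a whole culture, fewer cells of a type and less RNA per cell cannot be told apart.

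The proteasome degrades proteins tagged with ubiquitin. Its core particle is a barrel of stacked rings, in which the outer alpha rings guard the entrance and the inner beta rings hold the proteolytic sites. A regulatory particle sits on the barrel and has a base of ATPases, which unfold and thread the substrate, and a lid, which removes the ubiquitin chain. In cells exposed to interferon, inducible catalytic subunits replace the constitutive ones and yield the immunoproteasome, whose peptides feed MHC class I molecules. ES cells are known for high proteasome activity.

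The question here was how these genes differed between rat ES cells and rat fibroblasts. Constitutive proteasome genes were higher in rat ES cells in nearly every part of the complex, by less than 2-fold in most cases, while the inducible catalytic subunits did not pass the test. Of the 47 genes, 40 rose in rat ES cells and 1, the ATPase gene Psmc3, fell (limma, Benjamini-Hochberg adjusted p under 0.05 over all 14506 genes, no fold threshold). This is 85.1% of the members called higher, where 30.9% of all genes tested were called higher, 25.5% lower and 56.3% in either direction. Well-expressed genes were called more often: among genes above the median level, 50.1% were called higher and 84.8% in either direction (34.7% lower), against 41 of the 43 proteasome genes above that level called higher (95.3%) when only such genes were tested. The median log2 difference, rat ES minus fibroblast, was 0.42 over the members (a 1.33-fold difference) and -0.00 over all genes. Among genes above the median level it was 0.17, against 0.43 for the proteasome genes above that level. Taken without sign, the median difference was 0.42 over the members, 0.32 over all genes and 0.64 over genes above the median level. At least 2-fold differences were found in only 2 members, Psme2 and Psmg4, or 4.26% of them, where 10.6% of all genes were called higher by that rule, 10.1% lower and 20.7% in either direction. With a log2 difference of at least 0.58 the members called higher numbered 16 (34.0%), where 19.7% of all genes were called higher by that rule, 15.5% lower and 35.2% in either direction. Without fibroblast array 3 Psmg4 was under the 2-fold line and Psme2 alone was past it. The groups lay fully apart in 41 members with rat ES cells higher and in 1 with them lower, where 61.5% of all genes lay apart, 33.2% with rat ES cells higher and 28.3% lower. For the fold thresholds and for groups apart, shares among genes above the median level were not computed. Those comparisons are therefore not matched for level. On median-centred arrays the count was 41 higher and 0 lower, since Psmc3 lost its call there.

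**Figure D1:**
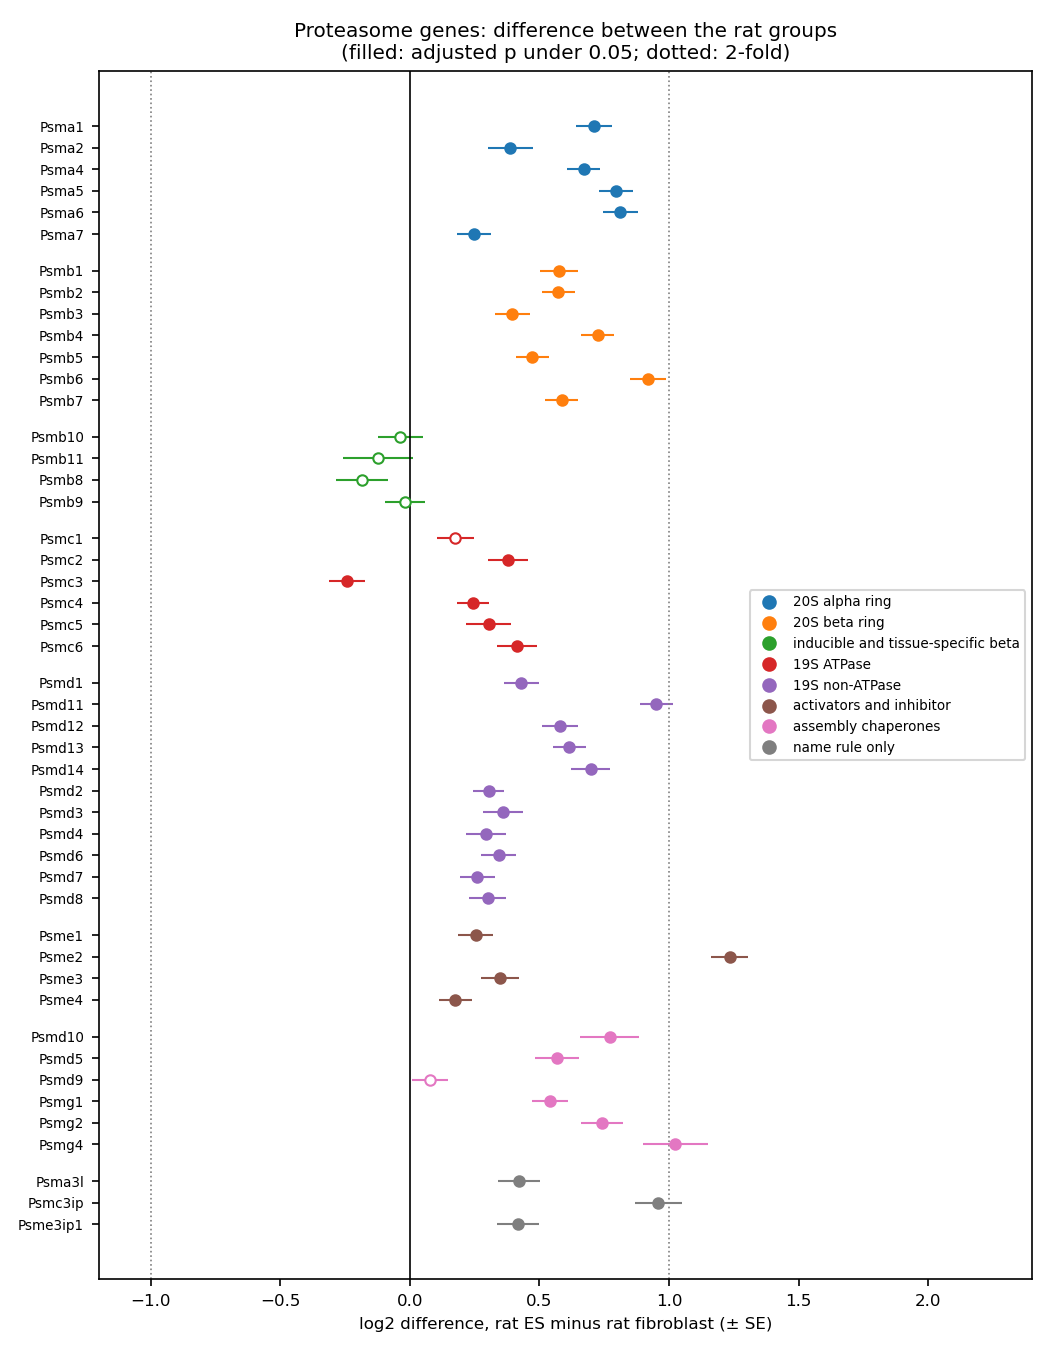
Log2 difference in signal between rat ES cells and rat fibroblasts (x axis, mean of 3 arrays minus mean of 3 arrays, bars are the standard error from limma) for each of the 47 genes, in colours by role; filled points have an adjusted p under 0.05 and dotted lines mark 2-fold. The alpha ring, beta ring and lid genes all lie to the right of 0, the 4 inducible or tissue-specific beta genes lie near 0 with open points, and Psme2 lies farthest to the right at 1.23.

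By array, the median signal over the 47 genes was 9.40, 9.37 and 9.37 (log2) on the rat ES arrays and 9.0, 9.06 and 9.06 on the fibroblast arrays. All 3 rat ES values lay above all 3 fibroblast values. Rat ES array 3, which had the highest fibroblast marker signal of its group, gave the lowest rat ES signal for 23 of the 40 genes that rose, against 5 on array 1 and 12 on array 2. The part of fibroblast RNA in this was not tested. The step was small, with a median deviation of the members from the rat ES mean of -0.021 on array 3. The fibroblast arrays were uneven too: arrays 1, 2 and 3 gave the lowest fibroblast signal for 15, 7 and 18 of the 40 genes. The same count over all genes is not given here. Without rat ES array 3, 39 members were called higher and the median log2 difference was 0.46. Of 7 measured endothelial markers, 4 also rose in rat ES cells and 1 fell, with summed log2 signals of 40.5 to 41.4 against 32.5 to 32.8 in fibroblasts. Pecam1 (4.58), Tie1 (3.00) and Cldn5 (2.05) differed most, while Kdr (3.73 and 3.72) and Emcn (3.28 and 3.43) were under the medians of all rat arrays. Their part in the members' differences was not tested.

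Promoter sequences of 6 members are shown because their genes cover the responses described below: Psme2 and Psmd11, among the largest increases, the constitutive catalytic subunits Psmb5 and Psmb6, and the inducible ones Psmb8 and Psmb10, which did not pass the test. Each runs 5′ to 3′ along the gene from 250 bases before to 50 bases after the RefSeq start, in build GRCr8. Capitals mark matches on either strand to the core of the antioxidant response element (TGACNNNGC), to an interferon-stimulated response element (GAAA, 2 bases of any kind and GAAA again) or to an ETS factor core (CCGGAAG). Psme2 is at chr15:33052702-33053001, minus strand, Psmb6 at chr10:55737638-55737937, plus strand, and Psmb5 at chr15:32047330-32047629, minus strand. Psmd11 is at chr10:65932093-65932392, plus strand, Psmb8 at chr20:4656982-4657281, minus strand, and Psmb10 at chr19:50743243-50743542, minus strand.
Psme2: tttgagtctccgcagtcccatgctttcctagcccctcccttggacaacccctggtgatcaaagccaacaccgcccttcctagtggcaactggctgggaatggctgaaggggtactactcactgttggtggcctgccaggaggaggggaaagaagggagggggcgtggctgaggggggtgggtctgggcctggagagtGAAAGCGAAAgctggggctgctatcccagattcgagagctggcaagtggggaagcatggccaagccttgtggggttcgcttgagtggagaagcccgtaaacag
Psmb6: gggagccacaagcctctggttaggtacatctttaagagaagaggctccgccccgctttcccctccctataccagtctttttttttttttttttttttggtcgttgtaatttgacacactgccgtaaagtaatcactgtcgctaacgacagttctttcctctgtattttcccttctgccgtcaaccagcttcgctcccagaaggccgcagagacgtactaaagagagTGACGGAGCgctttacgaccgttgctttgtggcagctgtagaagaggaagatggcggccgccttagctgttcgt
Psmb5: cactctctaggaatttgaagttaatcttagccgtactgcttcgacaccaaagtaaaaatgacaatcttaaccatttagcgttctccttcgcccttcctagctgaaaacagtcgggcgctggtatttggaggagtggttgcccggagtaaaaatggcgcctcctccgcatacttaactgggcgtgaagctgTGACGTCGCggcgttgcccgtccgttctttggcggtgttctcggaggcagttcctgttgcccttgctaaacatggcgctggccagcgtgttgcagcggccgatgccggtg
Psmd11: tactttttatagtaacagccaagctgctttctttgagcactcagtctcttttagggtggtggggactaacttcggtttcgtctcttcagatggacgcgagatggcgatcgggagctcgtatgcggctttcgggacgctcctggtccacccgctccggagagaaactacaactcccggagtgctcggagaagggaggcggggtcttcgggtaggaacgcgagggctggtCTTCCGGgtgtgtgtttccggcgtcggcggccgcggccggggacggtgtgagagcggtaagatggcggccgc
Psmb8: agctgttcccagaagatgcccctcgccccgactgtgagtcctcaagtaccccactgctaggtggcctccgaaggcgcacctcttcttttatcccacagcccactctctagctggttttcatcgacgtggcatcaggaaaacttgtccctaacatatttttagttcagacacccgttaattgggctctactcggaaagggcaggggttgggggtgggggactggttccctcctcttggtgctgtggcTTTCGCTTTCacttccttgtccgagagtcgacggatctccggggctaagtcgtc
Psmb10: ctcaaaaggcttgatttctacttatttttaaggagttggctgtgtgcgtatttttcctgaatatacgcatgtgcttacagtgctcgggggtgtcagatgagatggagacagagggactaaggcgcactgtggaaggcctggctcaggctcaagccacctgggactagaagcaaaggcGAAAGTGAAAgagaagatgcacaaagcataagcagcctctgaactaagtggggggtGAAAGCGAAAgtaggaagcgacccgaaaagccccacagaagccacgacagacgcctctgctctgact

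The antioxidant response element is the site bound by the factors encoded by Nfe2l1 and Nfe2l2, which are known to drive proteasome genes, and interferon-stimulated elements are bound by interferon regulatory factors. In these windows the antioxidant response element core began 24 bases before the start in Psmb6 and 60 bases before it in Psmb5. The interferon-stimulated element began 53 bases before the start in Psme2, 4 bases before it in Psmb8, on the opposite strand, and at 73 and 17 bases before it in Psmb10. The element was thus shared by Psme2, which rose, and by Psmb8 and Psmb10, which did not pass the test. The promoters of the remaining catalytic genes, Psmb7 and Psmb9, are not shown. Psmb7 held no antioxidant response element core but held ETS cores 15 and 54 bases before the start. Psmb9 held no interferon-stimulated element. In Psmd11 the ETS core lay on the opposite strand, 22 bases before the start.

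Promoters were found for 41 of the 47 members, and 8 motifs were searched on both strands. The ETS core matched 15 of the 41 promoters (36.6%), against 8.75% of all 33469 rat promoters of that length. The interferon-stimulated element matched 7 of 41 (17.1%), against 3.92% of all: Psma4, Psmb3, Psmb8, Psmb10, Psmd7, Psme2 and Psmg4. The antioxidant response element core also matched 7 of 41 (17.1%), against 12.1% of all: Psmb2, Psmb5, Psmb6, Psmd1, Psmd3, Psmd9 and Psme4. In Psmb2 this core overlapped a CCAAT box. The CCAAT box (CCAAT) matched 20 of 41 (48.8%, all promoters 37.5%) and the E-box (CACGTG) 6 (14.6%, all promoters 6.42%). The gamma-activated site (TTCNNNGAA) matched 4 (9.76%, all promoters 8.87%), the GC box (GGGGCGGGG) 4 (9.76%, all promoters 9.73%), and the palindromic nuclear respiratory factor element 1, in Psma2 (2.44%, all promoters 0.852%). Of the 35 promoters of genes that rose, 14 held the ETS core and 6 the antioxidant response element core, and of the 6 other promoters 1 held each of them. The CCAAT box was in 15 of these 35 and 5 of the 6 others, the interferon-stimulated element in 5 and 2, and the E-box in 4 and 2. The 33469 promoters were not matched to the members for expression level, and most members are well expressed. A share above that of all promoters therefore cannot be read as particular to proteasome genes. A match describes letters in a window and does not show that a factor binds there.

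All 6 measured alpha ring genes rose in rat ES cells, with a median log2 difference of 0.69. Psma6 had signals of 10.07, 9.95 and 10.00 (log2) on the rat ES arrays and 9.17, 9.25 and 9.17 on the fibroblast arrays. These groups did not overlap, and the log2 difference was 0.81 (SE 0.067, limma adjusted p = 1.02e-05). A second Psma6 probe set was low in both groups (4.02 and 3.70) and differed by 0.31, and with both averaged the difference was 0.56. Psma5 differed by 0.79, Psma1 by 0.71 and Psma4 by 0.67. Psma2 (0.39) and Psma7 (0.25) differed least in this ring. Psma7 was at 10.58, 10.57 and 10.60 in rat ES cells and at 10.31, 10.40 and 10.30 in fibroblasts (adjusted p = 0.01), so the groups lay apart by a small step. Psma8, the testis form of an alpha subunit, was not analysed here in rat cells. Psma3 shares its rat probe set with Psma3l and was left out by the rule. That shared probe set differed by 0.24 between the group means (10.46 in rat ES cells, 10.22 in fibroblasts), and the probe set assigned to Psma3l alone by 0.42 (9.64 and 9.21).

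All 7 constitutive beta ring genes rose as well, with a median of 0.58. Psmb6, Psmb7 and Psmb5 encode the 3 proteolytic subunits, which cut after acidic, basic and hydrophobic residues. Psmb6 had signals of 8.75, 8.75 and 8.72 on the rat ES arrays and 7.78, 7.76 and 7.92 on the fibroblast arrays. It had the largest difference in the ring, 0.92 (SE 0.070, a 1.89-fold difference, adjusted p = 5.97e-06). A second Psmb6 probe set, with means of 8.04 and 7.14, differed by 0.90. RefSeq lists 3 entries named as copies of Psmb6, so signal from copies cannot be separated from these values. Psmb7 was at 10.98, 11.04 and 11.07 in rat ES cells and at 10.47, 10.44 and 10.42 in fibroblasts, a difference of 0.59 (SE 0.064, adjusted p = 5.7e-05). Psmb5 was at 10.11, 10.08 and 10.09 against 9.56, 9.65 and 9.65, a difference of 0.47 (SE 0.064, adjusted p = 2.3e-04). In all of these catalytic genes every rat ES array lay above every fibroblast array. The structural ring members without a proteolytic site spanned 0.40 for Psmb3 to 0.73 for Psmb4, with Psmb1 at 0.58 and Psmb2 at 0.57.

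None of the inducible subunits passed the test, and their groups overlapped. Psmb9, which replaces Psmb6 in the immunoproteasome, had signals of 5.55, 5.42 and 5.49 in rat ES cells and 5.53, 5.40 and 5.59 in fibroblasts. Its log2 difference was -0.02 (SE 0.077, adjusted p = 0.873). Psmb10, which replaces Psmb7, was at 6.20, 6.24 and 6.31 against 6.14, 6.42 and 6.30, a difference of -0.04 (SE 0.086, adjusted p = 0.751). The sign of these small differences turned with the scaling: on median-centred arrays Psmb9 was at 0.05 and Psmb10 at 0.03, and after quantile normalization both were at 0.04. Psmb8, which replaces Psmb5, was at 4.69, 4.72 and 4.91 against 4.89, 4.85 and 5.14, a difference of -0.18 (SE 0.10, adjusted p = 0.158). Psmb11, the beta subunit of the thymus, differed by -0.12 (adjusted p = 0.481). Psmb10, with means of 6.25 and 6.29, lay near the medians of the named genes, 6.23 to 6.34. The signals of Psmb8, Psmb9 and Psmb11 lay below the medians of the rat arrays over all probe sets, 5.71 to 5.74, in both groups. At such signals a silent gene and an unresponsive probe set cannot be told apart. Blood cells express these inducible genes strongly, and Ptprc, Csf1r, Aif1 and Tyrobp, which mark blood cells and macrophages, also lay below those medians on all rat arrays. Of the 10 markers of that kind, 9 had rat ES means and 9 had fibroblast means below the array medians, with summed log2 signals of 47.1 to 47.8 and 45.6 to 47.3. The exceptions were Laptm5 in rat ES cells (8.34) and Cd14 in fibroblasts (8.65).

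**Figure D2:**
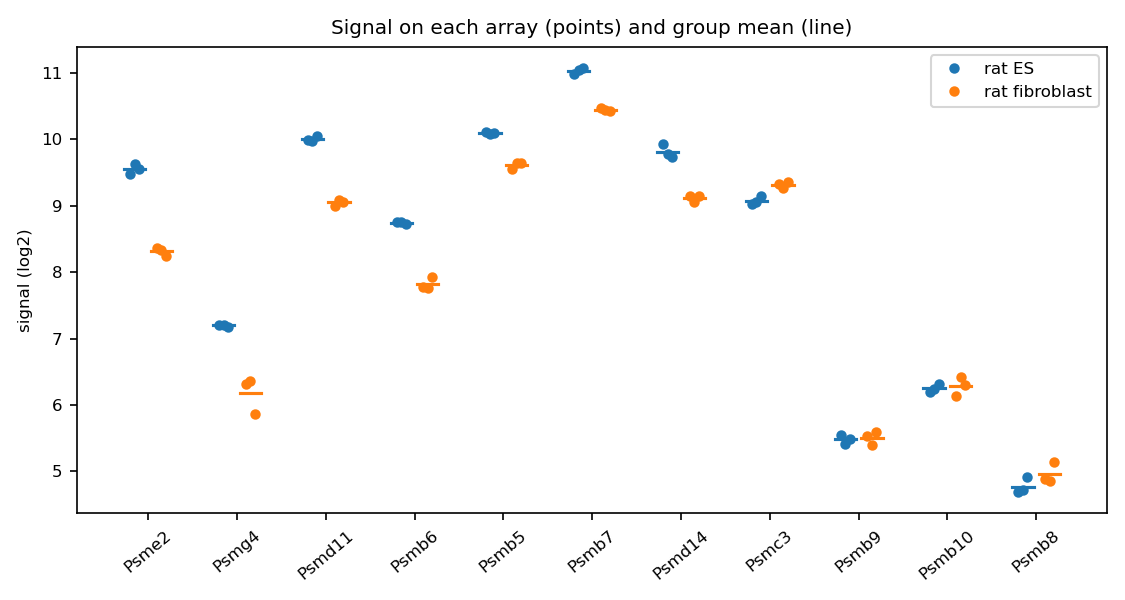
Signal (y axis, log2) of 11 proteasome genes on each of the 3 rat ES and 3 rat fibroblast arrays (points) with the group mean (line). The rat ES points lie above the fibroblast points for Psme2, Psmg4, Psmd11, Psmb6, Psmb5, Psmb7 and Psmd14, below them for Psmc3, and among them for Psmb9, Psmb10 and Psmb8.

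Each inducible subunit was then set against the constitutive subunit it replaces, on the same array, since a constant log2 shift between arrays cancels in this value. A scaling difference that varies with signal level does not cancel. Psmb9 minus Psmb6 was -3.19, -3.33 and -3.22 on the rat ES arrays and -2.25, -2.36 and -2.33 on the fibroblast arrays, a change of -0.93 (SE 0.055). Psmb10 minus Psmb7 was -4.77, -4.80 and -4.76 against -4.33, -4.02 and -4.12, a change of -0.62 (SE 0.092). Psmb8 minus Psmb5 was -5.42, -5.36 and -5.18 against -4.67, -4.80 and -4.52, a change of -0.66 (SE 0.11). In all 3 pairs every rat ES array lay below every fibroblast array. After quantile normalization the changes were smaller, at -0.80, -0.56 and -0.59 in the same order. Since the inducible signals differed little between the groups, these values mostly restate the increases of Psmb6, Psmb7 and Psmb5, and with unresponsive probe sets they would be the same. The two-sided exact permutation test over the 6 arrays gave p = 0.1 for each pair, also after adjustment over the 3 pairs, which is the smallest p that 20 assignments allow. The within-array value is not a ratio of amounts, because probe sets differ in how strongly they respond.

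**Figure D3:**
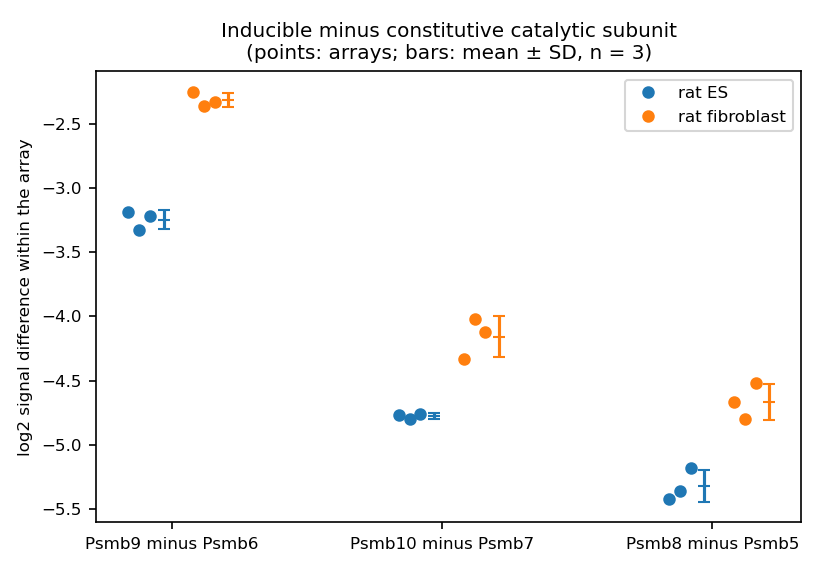
Log2 signal of each inducible catalytic subunit minus that of the constitutive subunit it replaces (y axis), on each array of the 2 rat groups (points), with mean ± SD (n = 3). In each pair the rat ES points lie below the fibroblast points, by 0.62 to 0.93 between the means.

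In the base of the regulatory particle, 4 of the 6 ATPase genes rose, 1 fell and 1 did not pass the test, with a median of 0.27. The increases were in Psmc6 (0.41), Psmc2 (0.38), Psmc5 (0.30) and Psmc4 (0.24). Psmc4 was at 10.39, 10.35 and 10.35 in rat ES cells and at 10.13, 10.14 and 10.09 in fibroblasts (adjusted p = 0.00846). A second Psmc4 probe set, with means of 10.24 and 9.85, differed by 0.38. Psmc1 differed by 0.18 and missed the threshold (adjusted p = 0.0645), although its groups did not overlap. Psmc3 was the one member that was lower in rat ES cells, at 9.02, 9.06 and 9.14 against 9.32, 9.26 and 9.36. It fell by 0.24 on the log2 scale (SE 0.068, adjusted p = 0.0149), a 1.18-fold difference. This call was lost without fibroblast array 3 (log2 difference -0.22, adjusted p = 0.0526) and on median-centred arrays (-0.17, adjusted p = 0.0508). The call of Psmc5 was lost after quantile normalization and without rat ES array 1 or fibroblast array 3.

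All 11 Psmd genes of the lid and the other non-ATPase subunits rose, with a median of 0.36. Psmd11, a lid subunit that helps to hold the regulatory particle on the core and whose level is known to limit proteasome assembly in human ES cells, had signals of 9.99, 9.97 and 10.05 in rat ES cells and 9.0, 9.09 and 9.06 in fibroblasts. The groups did not overlap, and the difference of 0.95 (SE 0.064, a 1.93-fold difference, adjusted p = 2.86e-06) was the largest among the structural subunits of core and regulatory particle. Psmd14, the deubiquitinase of the lid, was at 9.93, 9.78 and 9.73 against 9.15, 9.06 and 9.14, a difference of 0.70 (SE 0.075, adjusted p = 5.44e-05). The lid genes Psmd13 and Psmd12 differed by 0.61 and 0.58. The large scaffold genes Psmd1 and Psmd2 differed by 0.43 and 0.30, and the ubiquitin receptor gene Psmd4 by 0.29. Psmd7, the lid partner of Psmd14, had the smallest difference of these genes, 0.26, with 9.48, 9.39 and 9.44 in rat ES cells and 9.24, 9.17 and 9.11 in fibroblasts (adjusted p = 0.0105). Psmd3, Psmd6 and Psmd8 lay between 0.30 and 0.36. A second Psmd8 probe set, at 4.35 and 4.39, showed no increase, and the call of Psmd8 was lost when both probe sets were averaged.

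The alternative caps of the core showed the widest range. Psme2 and Psme1 encode the subunits of the same interferon-inducible activator, a ring that opens the core without ATP. Psme2 had signals of 9.48, 9.63 and 9.56 in rat ES cells and 8.37, 8.34 and 8.25 in fibroblasts. The groups lay far apart compared with their spread, and the difference of 1.23 (SE 0.071, a 2.35-fold difference, adjusted p = 1.05e-06) was the largest of the 47. Its second probe set, with means of 9.07 and 7.83, differed by 1.24. Psme1 was at 8.56, 8.60 and 8.65 against 8.40, 8.36 and 8.28, a difference of 0.25 (SE 0.068, adjusted p = 0.0114). The second probe set of Psme1 was low in both groups (4.97 and 4.76) and differed by 0.20. RefSeq lists 3 entries named as copies of Psme2 and 3 of Psme1, so signal from copies cannot be separated from these values.

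Psme3, the nuclear activator, was at 10.07, 9.99 and 9.88 in rat ES cells and at 9.67, 9.61 and 9.62 in fibroblasts, a difference of 0.35 (SE 0.072, adjusted p = 0.00301). A second Psme3 probe set, with means of 7.34 and 7.12, differed by 0.23, and its groups overlapped. Copies of Psme3 are named in 4 RefSeq entries, so their signal cannot be separated from these values. Psme4, which encodes the single-chain activator of nuclei and testis, was at 9.40, 9.37 and 9.38 against 9.15, 9.27 and 9.19. Its difference of 0.18 (SE 0.064, adjusted p = 0.0464) was the smallest that passed, and it kept its call in only 6 of 13 other settings. It was lost without any single one of the rat ES arrays and without fibroblast array 1 or 3. The call of Psme1 was lost after quantile normalization (0.16, adjusted p = 0.0609). The inhibitor gene Psmf1 was measured here only in mouse cells.

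Of the 6 measured assembly chaperones, 5 rose, with a median of 0.65. Psmg1, Psmg2 and Psmg4 encode chaperones that help to build the alpha ring. Psmg4 was at 7.21, 7.21 and 7.18 in rat ES cells and at 6.31, 6.36 and 5.87 in fibroblasts, where array 3 stood lower than the others. The difference was 1.02 (SE 0.13, adjusted p = 1.25e-04), and without fibroblast array 3 it was 0.87, which left Psme2 as the only member past 2-fold. Copies of Psmg4 are named in 3 RefSeq entries, so their signal cannot be separated from these values. Psmg2 differed by 0.74 and Psmg1 by 0.54. Psmd10, Psmd5 and Psmd9 encode chaperones of the ATPase ring. Psmd10, also known as gankyrin, was at 7.34, 7.17 and 6.90 against 6.36, 6.28 and 6.45, a difference of 0.77 (adjusted p = 3.92e-04). Psmd5 differed by 0.57, whereas Psmd9 overlapped between the groups (0.08, adjusted p = 0.396).

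The 3 genes that share only the name also rose. Psmc3ip was at 7.19, 6.95 and 7.24 in rat ES cells and at 6.12, 6.14 and 6.25 in fibroblasts, a difference of 0.96 (SE 0.091, adjusted p = 2.37e-05). Its groups were clearly apart. It works in meiotic recombination and is not part of the proteasome, and 5 of the 7 measured germ cell markers also rose in rat ES cells (summed log2 signals of 30.2 to 31.5, against 24.2 to 24.7 in fibroblasts), among them the meiotic genes Sycp3 and Syce1 but not Sycp1 and Sycp2. Of these markers, 6 lay below the array medians in rat ES cells and 7 in fibroblasts, where signals are hard to read. Their part in the result was not tested. Psma3l and Psme3ip1 each differed by 0.42. Without all 3 of these genes, 37 of the members were called higher, with the median log2 difference at 0.41.

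Psme2 and Psmg4 were also set beside their nearest measured neighbours in the RefSeq gene order. On rat chromosome 15, Psme2 lies between Emc9, a subunit of a membrane protein insertion complex, and Rnf31, a ubiquitin ligase that builds linear chains. Rnf31 rose by 0.75 (adjusted p = 1.17e-05). Emc9, below the array medians in rat ES cells, differed by -0.32 (adjusted p = 0.0312), a call kept in only 5 of 12 other settings, with adjusted p up to 0.106. On chromosome 17, Psmg4 lies between Slc22a23, which differed by -0.08 (adjusted p = 0.51), and the tubulin gene Tubb2b, which rose by 3.77 (adjusted p = 3.72e-09).

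The partners and regulators of the proteasome were read from 5 lists that hold 42 measured genes. Of these, 17 rose and 12 fell, with a median log2 difference of 0.03. Over all genes tested, 30.9% were called higher and 25.5% lower, and among genes above the median level 50.1% and 34.7%. The counts of each list below are to be read beside these shares. Of 9 proteasome cofactors, 6 rose and 1 fell. Zfand5, which encodes a proteasome-binding zinc finger protein, differed by 1.38 (adjusted p = 2.5e-07), and the proteasome-bound deubiquitinase genes Uchl5 and Usp14 by 1.31 and 0.73 (adjusted p = 4.1e-07 and 2.84e-05). Adrm1, the ubiquitin receptor that recruits Uchl5, differed by 0.48. Sem1, a small lid subunit gene outside the name rule, fell by 0.28, and Pomp, the maturation factor of the beta ring, did not pass the test (-0.20, adjusted p = 0.167).

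Both measured ubiquitin-activating enzymes rose. Uba1, the main enzyme that starts the ubiquitin cascade, was at 12.04 on each of the 3 rat ES arrays and at 10.76, 10.75 and 10.73 in fibroblasts, a difference of 1.29 (adjusted p = 3.11e-07), and Uba6 differed by 0.43. Of 10 shuttle and unfoldase genes, 2 rose and 2 fell. The increases were in Nsfl1c (0.86) and Faf1 (0.81), which encode cofactors of the unfoldase Vcp, and Vcp itself did not pass the test (-0.04, adjusted p = 0.701). Among the shuttle genes, Ubqln4 fell by 0.52 and Ubqln2 by 0.32.

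Of 7 regulators of proteasome gene transcription, 4 rose and 1 fell. Nfyb (0.77) and Nfya (0.72), subunits of the factor that binds CCAAT boxes, rose most. Nfyc, another subunit of that factor, differed by 0.17 (adjusted p = 0.0447), a call kept in only 6 of 13 other settings. Nfe2l2 (0.13, adjusted p = 0.141) and Keap1 (0.09, adjusted p = 0.571) did not pass the test. Nfe2l1, which drives the proteasome genes when the proteasome is impaired, was at 10.05, 10.21 and 10.34 in rat ES cells and at 9.86, 9.85 and 9.79 in fibroblasts, a difference of 0.37 (adjusted p = 0.00562). Ngly1, whose product removes sugars from the Nfe2l1 protein and so activates it, fell by 0.64 (adjusted p = 3.56e-04).

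Of 14 genes of interferon control and peptide loading, 8 fell and 3 rose. The interferon receptor kinase gene Jak1 fell by 1.56 and B2m, the light chain of MHC class I, by 1.33 (adjusted p = 4.63e-07 and 2.71e-06). The peptide transporter gene Tap1 lies between Psmb8 and Psmb9 in the RefSeq order on chromosome 20 and was at 6.15, 6.20 and 6.16 in rat ES cells and at 7.28, 6.95 and 7.17 in fibroblasts, a decrease of 0.96 (adjusted p = 2.5e-05). Tap2, on the other side of Psmb8, fell by 0.45. Jak2 (0.71), Irf1 (0.61) and Gbp2 (1.43) rose. Gbp2, an interferon-induced GTPase, lay below the array medians in fibroblasts (4.85). Mean signals of Tap2 (5.17 in rat ES cells, 5.62 in fibroblasts) and Irf1 (5.68 and 5.08) were under these medians for each group. The changes of Tap2 and Irf1 are therefore hard to read.

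**Figure D4:**
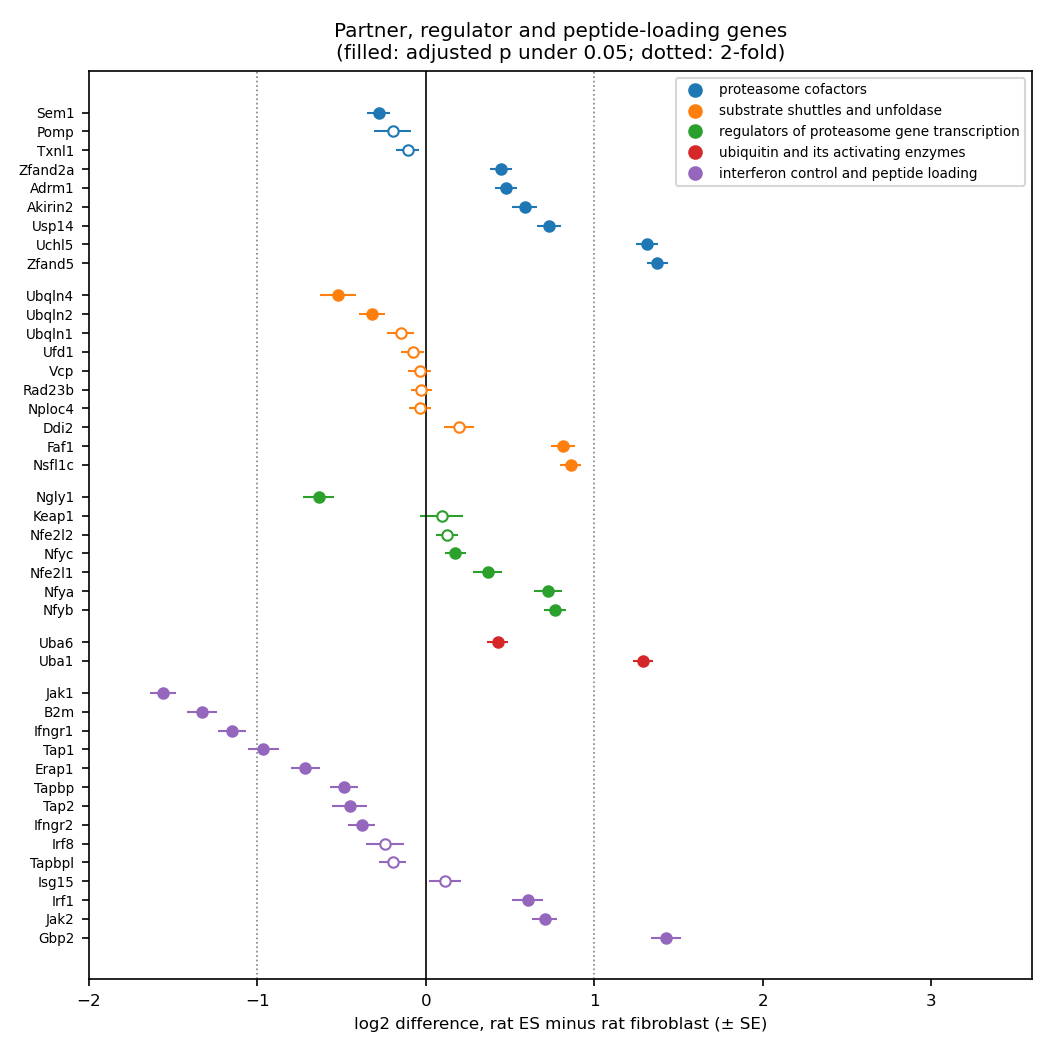
Log2 difference in signal between rat ES cells and rat fibroblasts (x axis, bars are the standard error from limma) for 42 partner, regulator and peptide-loading genes in 5 lists; filled points have an adjusted p under 0.05 and dotted lines mark 2-fold. Cofactors and activating enzymes lie mostly to the right of 0, with Zfand5 at 1.38, and peptide-loading genes mostly to the left, with Jak1 at -1.56.

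Mouse ES cells were read as percentiles within each array, among the 12114 symbols that both tables share, since the tables were normalized separately and no level was tested between species. The 46 shared proteasome genes had a median percentile of 91.8 in mouse ES cells, 90.2 in rat ES cells and 87.0 in rat fibroblasts. By array, the median was 91.6, 92.3 and 91.7 in mouse ES cells, 90.3, 90.3 and 90.5 in rat ES cells, and 86.7, 87.2 and 86.9 in fibroblasts. Proteasome genes thus lay high in all 3 groups, with 37 of 46 above the 75th percentile in each ES group and 35 in fibroblasts. Many mouse values are identical between arrays (11 of the 50 mouse members have the same value on all 3), so no spread over the mouse arrays is given.

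The largest upward difference of mouse from rat ES cells was in the inducible gene Psmb9. It lay at percentiles 57.6, 62.9 and 56.1 on the mouse arrays, 33.1, 30.8 and 31.6 on the rat ES arrays and 31.6, 29.8 and 32.0 on the fibroblast arrays, so all mouse values lay above all rat values. Psmb8 was low in both species, at mean percentiles of 21.6 in mouse ES cells and 19.5 in rat ES cells, and Psmb10 was at 51.9 and 44.0. The ATPase gene Psmc5 (97.9 against 81.7), Psmd4 (91.8 against 75.8) and Psmg2 (79.3 against 64.0) also lay higher in mouse ES cells. Psme2 stood at the other end. It was at 71.3, 71.1 and 74.3 on the mouse arrays, against a mean of 92.1 in rat ES cells and 78.3 in fibroblasts. Psma4 (79.5 against 95.8), Psme3ip1 (66.7 against 80.6) and Psmc6 (79.4 against 92.3) were also lower in mouse ES cells. Probe sets differ between the arrays of the 2 species, so the part of the probe sets in these differences was not tested. Among the mouse genes with no rat counterpart here, Psmf1 had a mean percentile of 78.4 among all named mouse genes, Psma3 of 94.5, Psma8 of 63.5 and Psmg3 of 65.0.

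**Figure D5:**
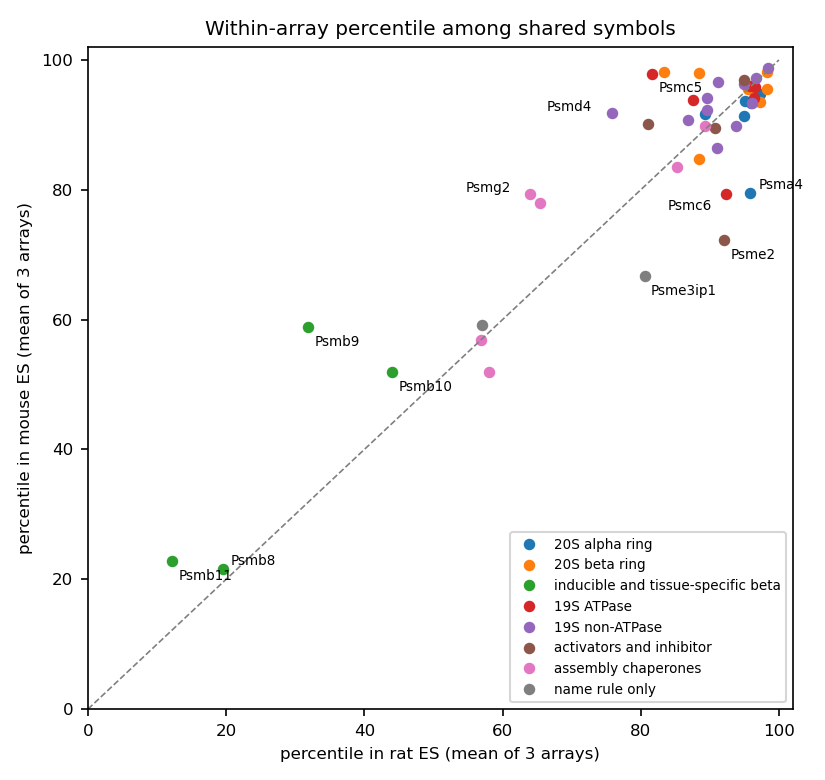
Mean percentile within the array of each of 46 proteasome genes in rat ES cells (x axis) and mouse ES cells (y axis), 3 arrays each, in colours by role; the dashed line marks equal percentiles. Most genes lie in the upper right corner, the inducible and tissue-specific beta genes lie lower left, Psmb9 lies above the line and Psme2 below it.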

How the data were processed

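Per the labels' protocols, total RNA was purified, and single-stranded DNA was fragmented and labelled with biotin for hybridization. The authors deposited one value per probe set for 6 rat and 3 mouse arrays on 2 platforms, taken here as log2 from their range; for background correction, normalization and probe summary the sources used here name no method. The number of arrays limits the precision. Genes were named through the supplied platform annotation, which can be old. A single symbol was held by 15310 of 29215 rat probe sets, several by 323 and none by 13582. Gene IDs of 46 of the 47 rat members were in RefSeq (GRCr8), which gave names, gene order and promoters. Of the members, 18 have a RefSeq entry named as a copy, and signal from copies cannot be separated in any of them.

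For the rat groups, a limma fit (version 3.58.1, R 4.3.3, lmFit and eBayes) had the group as its only term, with p-values Benjamini-Hochberg adjusted over 14506 genes, with no filter on level. On simulated data with 14506 genes, of which 200 were changed, it called 58% of genes changed 1.5-fold, 83% changed 2-fold and 6 unchanged genes. In the rat data 56.3% of genes were called, so the simulation does not match them and its rates do not carry over. Identical values numbered at most 30 of 29215 between rat replicates and 16691 to 20845 of 35557 between mouse arrays. Deviations of same-numbered rat arrays correlated at -0.00044, 0.031 and -0.0003, so numbers were not treated as pairs.

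Members and lists were chosen with earlier results of these data known. Named members are Psmb5 to Psmb10, Psme genes, Psmd11, Psmd14, those past 2-fold, and the 6 largest and 6 smallest differences that passed with groups apart; other members are given by their differences. From partner lists, up to 3 called genes with the largest difference were named, and further genes after their values were seen. Other settings were quantile normalization, median centring, filters on level (25th percentile, median), averaged probe sets, eBayes with trend and robust, other thresholds, a replicate block and leaving out each array.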

Additional observations from a re-analysis of the deposited data

How the results depend on the processing

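The count of members called higher was 37 to 41 under quantile normalization, median centring, both level filters, averaged probe sets, eBayes with trend and robust, and the replicate block (39), and 38 to 40 when each rat array was left out. It was 35 at adjusted p under 0.01 and 16 with a log2 difference of at least 0.58. The count called lower was 0 on median-centred arrays, at adjusted p under 0.01 and with that fold threshold, and 0 to 1 over the left-out arrays. Median centring gave 4 members past 2-fold and a median difference of 0.48; over the left-out arrays these were 1 to 3 and 0.40 to 0.46. The mouse median percentile was 94.0 among all named mouse genes. Of 244 values of 19 named members, 227 kept their sign and their side of the threshold, 10 lost their call, all in Psme4, Psme1 and Psmc3, and 7 changed sign, all in Psmb9 and Psmb10, which passed in none of these. Psmb9 was at 0.04 after quantile normalization, 0.05 with median centring and -0.07 to 0.02 over the left-out arrays, and Psmb10 at 0.04, 0.03 and -0.11 to 0.03. The replicate block, on numbers not shown to pair arrays, lost only the call of Psme4 (0.18, adjusted p = 0.0862) among the members. The within-array changes of the 3 subunit pairs kept their sign throughout. The causes were not tested. Signals below the array medians limit Psmb8, Psmb9 and Psmb11, and Psmb10 lay near the medians of the named genes.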
